A study of Drosophila melanogaster with 7 samples.

Results

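The Rab GTPases of the fly genome were followed in RNA from sorted cells of the adult midgut of Drosophila melanogaster. Members were all genes of the deposited table whose symbol is Rab or RabX followed by a number, with or without a closing letter from A to D, and 28 of 17481 listed genes met that rule. The table held 4 ScOE libraries, from flies labelled as overexpressing Sc, and 3 Ctrl libraries, from flies labelled wild type. All flies were adults at day 2, and about 10000 cells carrying green fluorescent protein were sorted per library from elastase-digested midguts and are called intestinal stem cells in the labels. Sc is the proneural transcription factor scute, which acts in the formation of hormone-secreting enteroendocrine cells. The labels name neither the driver of Sc nor that of the fluorescent protein, and they do not state the number of flies behind a library, so p-values cover only the spread between these libraries, which may be technical.

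Rab proteins are small GTPases that mark the membranes of a cell and recruit the proteins that move, tether and fuse vesicles. Each is loaded with GTP by an exchange factor, switched off by a GTPase activating protein, and held on its membrane by geranylgeranyl groups added to its C-terminus. Members differ in the membrane they mark: some act on the endoplasmic reticulum and the Golgi, some on endosomes and lysosomes, some on carriers to the cell surface, and a few on the regulated vesicles from which neurons and endocrine cells release transmitters and hormones.

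RNA levels are given as FPKM (fragments per kilobase of transcript, scaled to the mapped fragments of the library), which are per length. Levels of different genes are set side by side on that basis. RNA was amplified before sequencing, and how evenly each gene was amplified was not tested. Summed FPKM was 1059344 to 1382537 in ScOE libraries and 1924963 to 2614335 in Ctrl libraries, and a single non-coding entry, CR40469, held 12.4% to 21.7% of it in ScOE libraries and 22.9% to 29.5% in Ctrl libraries, while the third quartile over all listed genes was 12.7 to 13.1 FPKM in ScOE libraries and 13.1 to 13.2 FPKM in Ctrl libraries. The overexpressed gene sc was at 66.0 to 190 FPKM in ScOE libraries and at 0.886 to 2.44 FPKM in Ctrl libraries (exact two-sided permutation test over 35 splits, p = 0.0571, the smallest that this test can give). The stem cell marker esg was at 213 to 254 FPKM in ScOE libraries and at 230 to 362 FPKM in Ctrl libraries. The 5 stem cell and enteroblast markers summed to 423 to 508 FPKM in ScOE libraries and 490 to 644 FPKM in Ctrl libraries. They did not move together: Sox21a was lower in every ScOE library (mean 46.8 against 117 FPKM). Dl had a higher mean in ScOE (41.9 against 21.6 FPKM), and the groups overlapped for Dl, esg, mira and klu. Of 7 enteroendocrine markers 6 were higher in every ScOE library than in any Ctrl library (summed 2075 to 6052 against 69.0 to 671 FPKM), as were 5 of 5 neuron markers (60.7 to 78.2 against 7.78 to 8.36 FPKM). The 12 enterocyte markers summed to 362 to 8801 FPKM in ScOE libraries and 965 to 28694 FPKM in Ctrl libraries, lowest in library 1 of each group, and 8 visceral muscle markers summed to 168 FPKM in ScOE 3 against at most 10.7 FPKM in any other library. Trachea markers stayed at or below 4.82 FPKM and hemocyte markers at or below 8.58 FPKM in sum, and no marker in these lists was at 0 in all libraries.

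Of the 28 Rab genes, 23 were tested, being at 1 FPKM or more in 3 or more libraries. Rab3 and Rab26, of regulated secretion, were at 27.3 and 1.77 FPKM on average in ScOE libraries, against 0.850 and 0.0396 FPKM in Ctrl libraries. RabX1, which was among the most abundant Rab transcripts of Ctrl cells, fell 6.51-fold in the mean. Ctrl 1 (737 FPKM) weighed on that fold, as Ctrl 2 and Ctrl 3 were at 351 and 373 FPKM. Besides RabX1, 9 Rab genes of endosomes, recycling, exocytosis, the Golgi and the endoplasmic reticulum were lower in ScOE libraries: Rab5, Rab7, Rab4, Rab11, Rab8, Rab10, Rab6, Rab30 and Rab18 fell 1.48-fold to 2.15-fold in the mean. Rab2 moved the other way and was 1.35-fold higher. With each library brought to the same FPKM total, none of the 9 falls was called, and 7 of them changed sign.

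**Figure D1:**
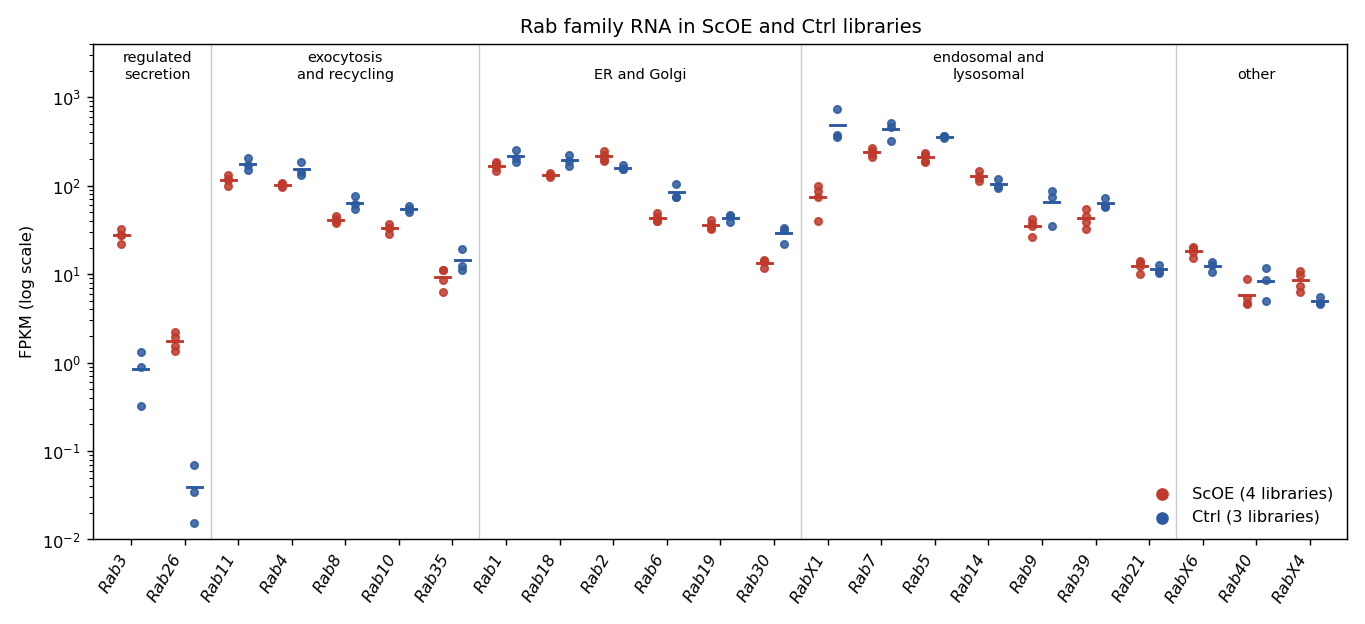
FPKM of the 23 tested Rab genes (log scale), grouped by role, with ScOE libraries in red and Ctrl libraries in blue; points are libraries and bars are group means. Rab3 lies between 21.9 and 32.0 FPKM in ScOE libraries and between 0.323 and 1.32 FPKM in Ctrl libraries, and RabX1 between 40.3 and 98.7 FPKM in ScOE libraries and between 351 and 737 FPKM in Ctrl libraries.

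Counted over the tested members, 5 rose and 10 fell at a Benjamini-Hochberg adjusted p under 0.05 in limma, and 8 did not pass. Those are 21.7% and 43.5% of the 23, where 17.6% of all 8421 tested genes rose and 21.3% fell, 39% in all. The median log2 fold change, ScOE minus Ctrl on the log2(FPKM + 1) scale, was -0.56 over the tested members and -0.08 over all tested genes. Rab3 and Rab26 reached the filter only because of their ScOE values, which favours a rise, and the count of rises is a description only. Every ScOE library was above every Ctrl library for 5 tested members (20.3% of all tested genes) and below every Ctrl library for 12 (25.9% of all tested genes). In a bulk library, fewer cells of a type and less RNA per cell cannot be told apart, and this holds for each gene below.

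How the libraries are set to each other moved the falls. With each library brought to the same FPKM total, the median of all tested genes moved to 0.68, and 8 members rose and 1, RabX1, fell. With upper quartile scaling, where the median was 0.08, 6 rose and 6 fell, and with quantile normalization 5 rose and 4 fell. Falls were 4.35% of members beside 3.33% of all tested genes with equal totals. They were 26.1% beside 14.9% with upper quartile scaling and 17.4% beside 17.3% with quantile normalization. Rises were 34.8% beside 52.9%, 26.1% beside 22.8% and 21.7% beside 17.6%, in that order. The excess of falls seen as deposited was thus not seen with quantile normalization. Relative to the median of all tested genes, 16 of the 23 members lay below it as deposited, 16 with upper quartile scaling, 16 with equal totals and 15 with quantile normalization. Members called in the same direction as deposited and under these 3 scalings were Rab3, Rab26, Rab2, RabX6 and RabX1. Of these, Rab3, Rab26 and RabX1 were also called with each library left out in turn. Rab2 and RabX6 were not, and their calls were lost with a replicate block too. For Rab3 and Rab26, which reached the filter only through ScOE libraries, the calls are a description only.

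**Figure D2:**
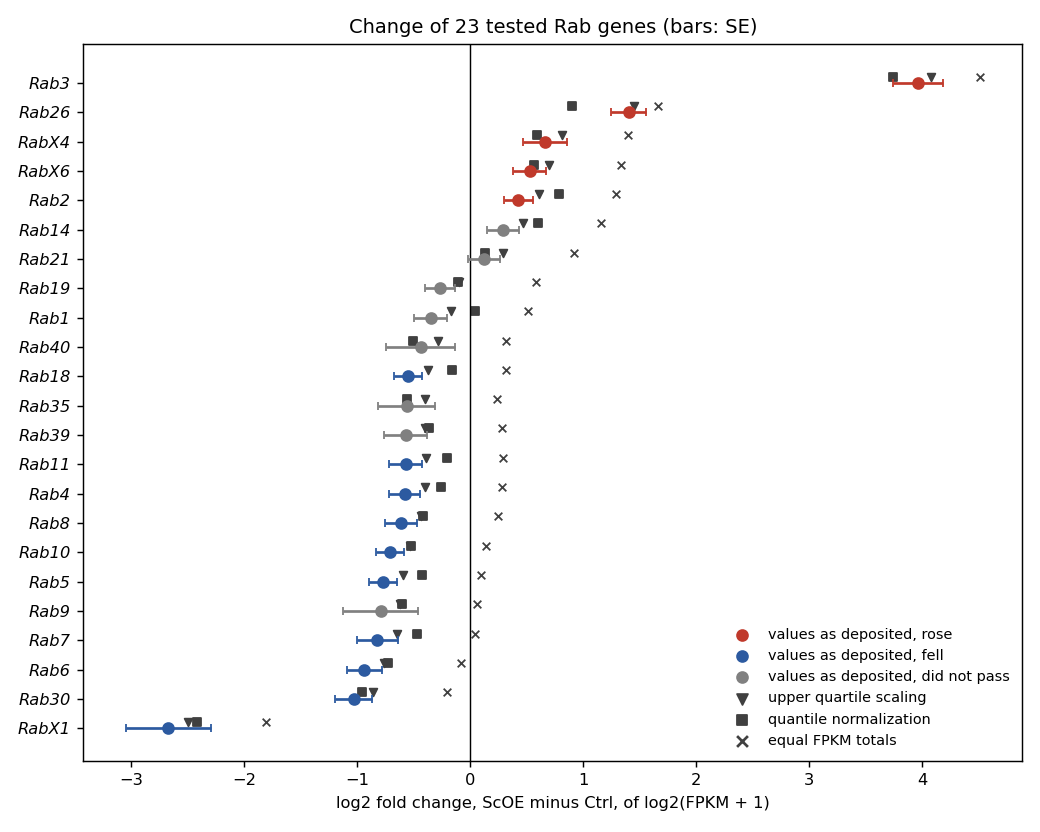
Log2 fold change (ScOE minus Ctrl, log2(FPKM + 1)) of the 23 tested Rab genes with its SE, coloured by call, and the same value under 3 other scalings (triangles, squares and crosses). RabX1 at -2.67 and Rab3 at 3.96 stand at the ends under each scaling, while 13 members change sign with equal FPKM totals.

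Rab3, Rab26 and Rab27 act on regulated vesicles. Rab3 (FBgn0005586, BDGP6 chromosome 2R, 10721335 to 10729203, minus strand) is the Rab of synaptic vesicles. It was at 21.9, 32.0, 27.7 and 27.7 FPKM in ScOE 1 to 4, against 0.323, 1.32 and 0.903 FPKM in Ctrl 1 to 3. The ScOE libraries were close to each other and far above the Ctrl libraries, 32.2-fold in the mean. The log2 fold change was 3.96 ± 0.22 (SE, n = 4 and 3, adjusted p = 3.80e-05). Rab3 reached the filter only through its ScOE libraries, so this call is a description only. In ScOE cells Rab3 ranked 16th of the 23 tested members by mean FPKM, below Rab10, whose range overlapped that of Rab3, and above RabX6, whose range did not.

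Rab26 (FBgn0086913, chromosome 3L, 21318774 to 21335027, plus strand) is linked to secretory granules in mammals. It was at 1.35, 1.52, 2.23 and 1.97 FPKM in ScOE 1 to 4, against 0.0152, 0.0695 and 0.0343 FPKM in Ctrl 1 to 3. All ScOE libraries were above all Ctrl libraries, but the level in ScOE cells was low, the lowest among the tested members. The means differed 44.6-fold, and the log2 fold change was 1.40 ± 0.16 (adjusted p = 6.40e-04). It was 3.73 with a pseudocount of 0.1 and 0.42 with a pseudocount of 5. Rab26 too reached the filter only through ScOE libraries, and its call is a description only. Rab27 (FBgn0025382, chromosome X, 1473884 to 1476974, minus strand), which docks secretory granules in mammals, did not reach the filter. It was at 0.162, 0.176, 0.0913 and 0.133 FPKM in ScOE 1 to 4, and was listed at 0, 0.0403 and 0 FPKM in Ctrl 1 to 3. Both groups were near the bottom of the table, with every ScOE library above every Ctrl library. With no filter on low values Rab27 passed (log2 0.17, adjusted p = 0.0136).

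The summed FPKM of these 3 genes was set against that of the 7 endosomal and lysosomal members of the same library, a ratio that does not change when a library is scaled by a single factor. Per 1000 FPKM of endosomal and lysosomal Rab RNA, there were 28.2, 46.5, 41.1 and 43.7 FPKM of regulated secretion Rab RNA in ScOE 1 to 4, against 0.206, 0.975 and 0.647 FPKM in Ctrl 1 to 3. Nearly all of it was Rab3 in both groups. The ratio also moves with its denominator. The summed FPKM of the 7 endosomal and lysosomal members was lower in every ScOE library than in any Ctrl library. RabX1, which is among them, averaged 74.9 FPKM in ScOE and 487 FPKM in Ctrl. Its fall raises the ratio in ScOE by itself, by an amount that was not worked out. The enteroendocrine and neuron marker sums given above moved in the same direction as the regulated secretion Rab genes. The part of those cells in the rise was not tested.

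Proteins that work with Rab3 and Rab27 were taken from a list of 5 genes, all tested, of which 3 rose and 1 fell. Those are 60% and 20%, beside 17.6% and 21.3% of all tested genes. Rph encodes rabphilin, which binds Rab3 and Rab27 on vesicles. It was at 20.3, 29.3, 35.9 and 27.7 FPKM in ScOE 1 to 4, against 0.419, 1.44 and 1.03 FPKM in Ctrl 1 to 3 (log2 3.91 ± 0.25, adjusted p = 6.28e-05), and every ScOE library was far above every Ctrl library. Rim, an active zone protein bound by Rab3, was at 3.80, 7.91, 8.02 and 3.01 FPKM in ScOE 1 to 4, against 0.157, 0.431 and 0.697 FPKM in Ctrl 1 to 3 (log2 2.15 ± 0.34, adjusted p = 0.00253). The ScOE libraries fell into a higher and a lower pair, both above Ctrl. Rbp, the RIM-binding protein of the active zone, averaged 6.45 ± 0.597 FPKM in ScOE and 0.247 ± 0.0717 FPKM in Ctrl (SD, n = 4 and 3; log2 2.58 ± 0.13, adjusted p = 2.26e-05). These 3 genes, like Rab3, reached the filter only through ScOE libraries, so their calls are a description only.

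**Figure D3:**
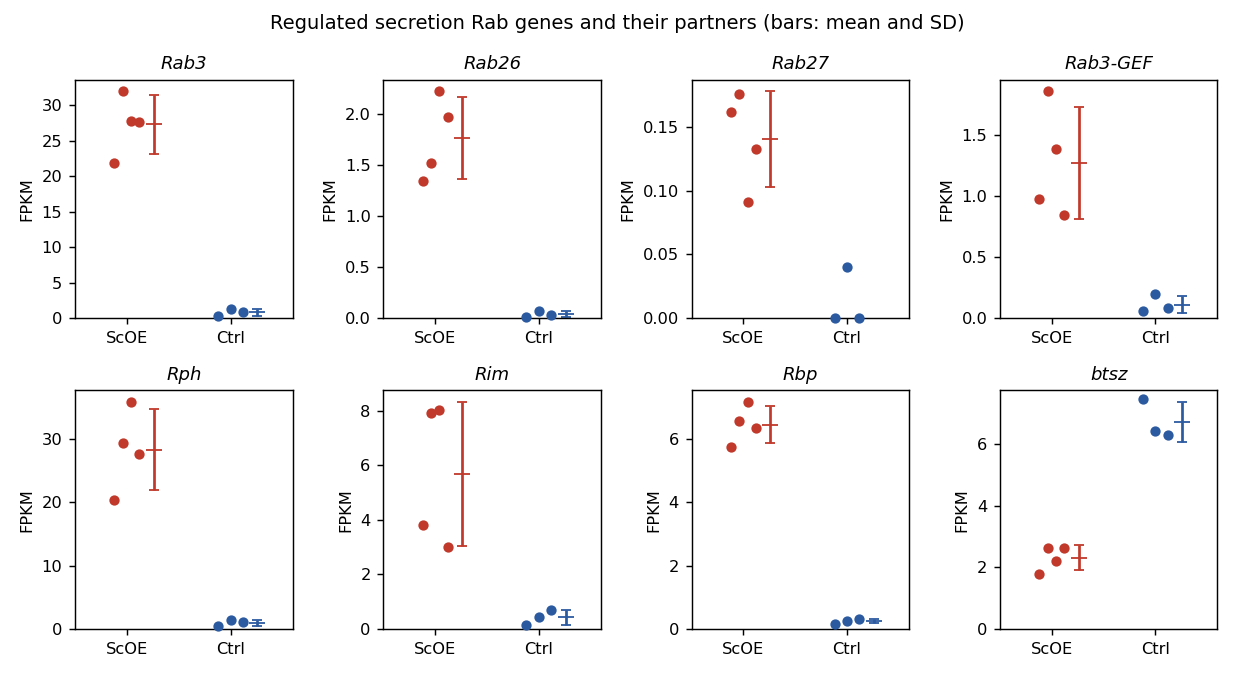
FPKM per library (points) of Rab3, Rab26, Rab27, the exchange factor gene Rab3-GEF and the effector genes Rph, Rim, Rbp and btsz, ScOE in red and Ctrl in blue, with mean and SD beside groups that have no library at 0. All but btsz are higher in every ScOE library than in any Ctrl library; btsz averages 2.31 FPKM in ScOE and 6.72 FPKM in Ctrl.

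The member of that list that fell was btsz, which encodes a synaptotagmin-like protein of epithelial cells, at 2.31 ± 0.410 FPKM in ScOE and 6.72 ± 0.643 FPKM in Ctrl (log2 -1.23 ± 0.14, adjusted p = 7.56e-04). Unc-13-4B did not pass (3.84 ± 0.336 against 3.90 ± 1.36 FPKM). Rab3-GEF, the exchange factor of Rab3, did not reach the filter and is named after its values were seen. It was at 0.975, 1.87, 1.39 and 0.851 FPKM in ScOE 1 to 4, against 0.0599, 0.197 and 0.0809 FPKM in Ctrl 1 to 3. The subunits of the GTPase activating complex of Rab3 did not pass, with Rab3-GAP at 3.41 ± 0.331 FPKM in ScOE and 3.24 ± 0.376 FPKM in Ctrl (adjusted p = 0.757) and CG31935, the catalytic subunit gene, at 11.6 ± 1.65 and 11.4 ± 1.38 FPKM (adjusted p = 0.919).

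The 7 members of endosomes and lysosomes held 43.3% ± 1.45 of all Rab FPKM in ScOE libraries and 55.6% ± 1.36 in Ctrl libraries (SD, n = 4 and 3). Of that same total, which includes RabX1, the other 6 members held 39.0% ± 1.48 in ScOE libraries and 38.0% ± 5.67 in Ctrl libraries. The groups overlapped. A fall of RabX1 raises the share of the others by itself, so these shares do not show whether the others kept their level. Of the 7 members 3 fell (42.9%, beside 21.3% of all tested genes) and none rose. RabX1 (FBgn0015372, chromosome 2R, 23519839 to 23523613, minus strand) is a divergent Rab that acts in the endosomal system of the fly. It was at 98.7, 74.0, 86.5 and 40.3 FPKM in ScOE 1 to 4, against 737, 351 and 373 FPKM in Ctrl 1 to 3. No library of either group came near the other group, and within the groups Ctrl 1 stood above the other Ctrl libraries and ScOE 4 below the other ScOE libraries. The log2 fold change was -2.67 ± 0.38 (adjusted p = 0.00162), and -2.33 without Ctrl 1 (adjusted p = 0.00386).

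By mean FPKM RabX1 was 9th of the family in ScOE cells and 1st in Ctrl cells. The Ctrl rank rested on Ctrl 1: Rab7 was above RabX1 in Ctrl 2 and Ctrl 3, and without Ctrl 1 the Ctrl means were 487 FPKM for Rab7 and 362 FPKM for RabX1. Set against Rab5 in the same library, RabX1 stood at 0.417, 0.332, 0.456 and 0.215 times its level in ScOE 1 to 4, and at 2.05, 0.970 and 1.07 times its level in Ctrl 1 to 3. Its share of all Rab FPKM was 4.32% ± 1.26 in ScOE and 17.6% ± 6.95 in Ctrl, and RabX1 was the 1 member of 28 whose share was lower in every ScOE library than in any Ctrl library. The share of 10 members was higher without overlap. On average that of Rab2 went from 5.83% in Ctrl to 12.6% in ScOE, and that of Rab1 from 7.82% to 9.77%. A fall of an abundant member raises such shares by itself, by an amount that was not worked out.

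**Figure D4:**
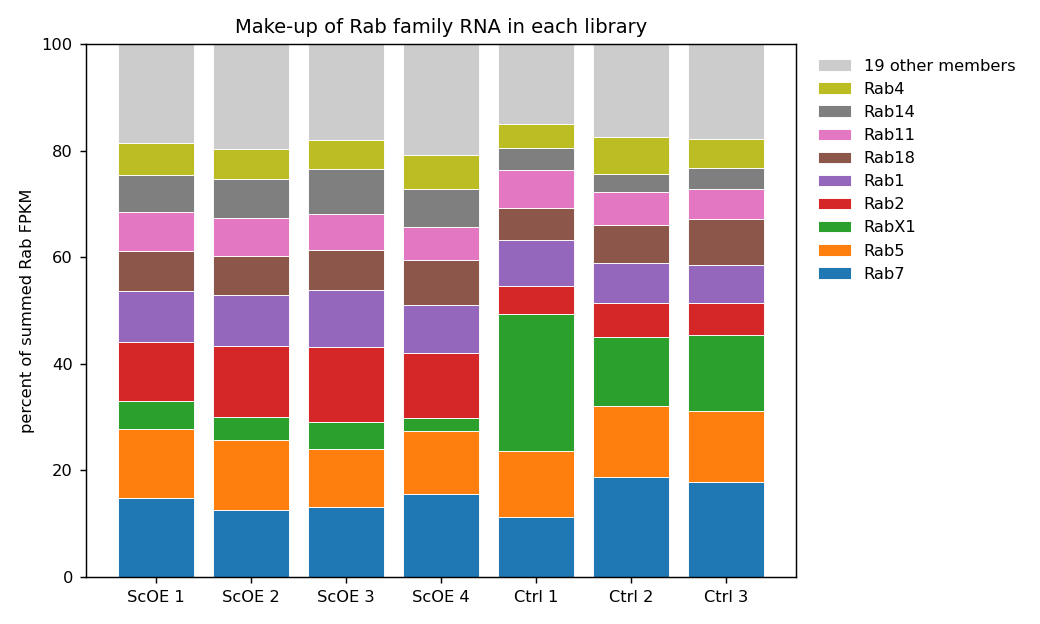
Percent of summed Rab FPKM held by the 9 most abundant members and by the other 19, one bar per library, ScOE on the left. RabX1 (green) takes 4.32% on average in ScOE and 17.6% in Ctrl, and Rab2 (red) 12.6% in ScOE and 5.83% in Ctrl. A fall of RabX1 raises the other shares by itself, by an amount that was not worked out.

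Rab5, which governs fusion of early endosomes, was at 237, 223, 190 and 187 FPKM in ScOE 1 to 4, against 360, 362 and 349 FPKM in Ctrl 1 to 3. The Ctrl libraries were nearly equal and all above the ScOE libraries, and the fall was 1.71-fold (log2 -0.78 ± 0.12, adjusted p = 0.00272). Rab7, the Rab of late endosomes and lysosomes, was at 269, 213, 228 and 248 FPKM in ScOE 1 to 4, against 321, 508 and 467 FPKM in Ctrl 1 to 3 (log2 -0.83 ± 0.18, adjusted p = 0.0106). Ctrl 1 was the lowest Ctrl library but still above ScOE. Both calls were lost with quantile normalization and with equal totals. With equal totals the log2 fold changes were 0.09 for Rab5 and 0.04 for Rab7 and so lay below the median of all tested genes.

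The other endosomal members did not pass. Rab39, a Rab of late endosomes, was at 45.1, 39.2, 32.3 and 54.7 FPKM in ScOE 1 to 4, against 57.9, 72.7 and 59.4 FPKM in Ctrl 1 to 3, without overlap but just outside the threshold (adjusted p = 0.0501; 0.0215 without ScOE 4). Rab9, which returns cargo from late endosomes to the Golgi in mammals, was at 38.2, 42.4, 34.8 and 26.1 FPKM in ScOE 1 to 4, against 34.7, 74.8 and 87.8 FPKM in Ctrl 1 to 3 (adjusted p = 0.0952). Ctrl 1 lay within the ScOE range, and without it Rab9 passed (log2 -1.19, adjusted p = 0.00626). Rab14, which acts between endosomes and the Golgi, was at 129, 123, 147 and 112 FPKM in ScOE 1 to 4, against 119, 93.4 and 99.6 FPKM in Ctrl 1 to 3 (adjusted p = 0.144), with Ctrl 1 inside the ScOE range. Rab14 passed as a rise under each of the 3 scalings (log2 0.47, 0.60 and 1.15 with upper quartile, quantile and equal totals). Rab21, of early endosomes, was at 12.3, 10.2, 13.9 and 13.5 FPKM in ScOE 1 to 4, against 10.99, 10.3 and 12.8 FPKM in Ctrl 1 to 3 (adjusted p = 0.542). The groups overlapped, and Rab21 passed with equal totals (log2 0.92).

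Among the 5 members of exocytosis and recycling, 4 fell (80%, beside 21.3% of all tested genes) and none rose. Their share of Rab FPKM was 17.7% ± 0.735 in ScOE and 16.9% ± 1.28 in Ctrl. That total includes RabX1, whose fall raises this share in ScOE by itself. Rab11, of recycling endosomes, was at 131, 120, 117 and 100 FPKM in ScOE 1 to 4, against 206, 169 and 151 FPKM in Ctrl 1 to 3 (log2 -0.57 ± 0.15, adjusted p = 0.0206), a call that was lost without ScOE 3 and without Ctrl 2 (adjusted p up to 0.0546). Rab10, which directs secretion to the basal side of fly epithelia, was at 33.1, 33.0, 28.7 and 36.8 FPKM in ScOE 1 to 4, against 50.1, 54.2 and 58.6 FPKM in Ctrl 1 to 3 (log2 -0.71 ± 0.12, adjusted p = 0.00392). The groups of both genes were apart. Rab8, of polarised exocytosis, was at 45.8, 39.8, 38.1 and 42.1 FPKM in ScOE 1 to 4, against 62.8, 76.05 and 54.0 FPKM in Ctrl 1 to 3 (log2 -0.61 ± 0.14, adjusted p = 0.0137). Rab4, of fast recycling, was at 108, 98.3, 95.9 and 104 FPKM in ScOE 1 to 4, against 133, 186 and 142 FPKM in Ctrl 1 to 3 (log2 -0.58 ± 0.14, adjusted p = 0.0151). Neither gene overlapped between the groups. Rab35, which acts in recycling at the plasma membrane, was at 11.2, 11.2, 8.53 and 6.28 FPKM in ScOE 1 to 4, against 19.3, 12.4 and 11.1 FPKM in Ctrl 1 to 3, with Ctrl 3 inside the ScOE range, and did not pass (adjusted p = 0.120). All 4 calls were lost with equal totals, where each log2 fold change was between 0.14 and 0.29, and those of Rab8, Rab4 and Rab11 were lost with the other scalings too.

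The 6 members of the endoplasmic reticulum and Golgi split: 3 fell (50%, beside 21.3% of all tested genes), Rab2 rose and 2 did not pass. Their share of Rab FPKM was 35.4% ± 1.64 in ScOE and 26.6% ± 0.837 in Ctrl. The fall of RabX1 raises this share in ScOE too, by an amount that was not worked out. As deposited, the summed FPKM of these members was lower, 555 to 651 FPKM in ScOE against 712 to 746 FPKM in Ctrl. The difference in share cannot be read as a gain of these members. Rab6, of retrograde traffic at the Golgi, was at 43.9, 48.7, 40.4 and 40.4 FPKM in ScOE 1 to 4, against 105, 74.0 and 75.4 FPKM in Ctrl 1 to 3 (log2 -0.94 ± 0.16, adjusted p = 0.00345). Rab30, a Golgi Rab, was at 13.9, 13.8, 11.6 and 14.3 FPKM in ScOE 1 to 4, against 22.1, 31.6 and 32.8 FPKM in Ctrl 1 to 3 (log2 -1.03 ± 0.16, adjusted p = 0.00279). Both were lower in every ScOE library, by 1.96-fold and 2.15-fold in the mean. Rab18, known from the endoplasmic reticulum and lipid droplets, was at 139, 125, 131 and 132 FPKM in ScOE 1 to 4, against 169, 191 and 225 FPKM in Ctrl 1 to 3, without overlap (log2 -0.55 ± 0.13, adjusted p = 0.0122). With equal totals these 3 calls were lost as well, and that of Rab18 was lost with each scaling.

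Rab2, which acts at the Golgi and in the maturation of dense-core vesicles in worms and flies, was at 200, 223, 245 and 192 FPKM in ScOE 1 to 4, against 152, 172 and 153 FPKM in Ctrl 1 to 3. Each ScOE library was above each Ctrl library (log2 0.43 ± 0.13, adjusted p = 0.0328). The difference was small and rested on all libraries: its call was lost when any 1 of 6 of the 7 libraries was left out (adjusted p up to 0.0888), while it held under the 3 scalings (log2 0.60, 0.79 and 1.29). Set against Rab5 in the same library, Rab2 stood at 0.844, 1.00, 1.29 and 1.02 times its level in ScOE 1 to 4, and at 0.423, 0.476 and 0.439 times its level in Ctrl 1 to 3. By mean FPKM it was 2nd of the family in ScOE cells, with a range overlapping those of Rab7 and Rab5, and 7th in Ctrl cells.

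Rab1, which starts transport from the endoplasmic reticulum to the Golgi, was at 175, 163, 186 and 145 FPKM in ScOE 1 to 4, against 252, 205 and 188 FPKM in Ctrl 1 to 3. The groups did not overlap, but the difference did not pass (log2 -0.35 ± 0.15, adjusted p = 0.0968). An antisense gene, CR45798, overlaps 41.1% of the exon length of Rab1 and was at 1.75 to 3.43 FPKM in ScOE libraries and at 65.6, 10.3 and 8.68 FPKM in Ctrl 1 to 3. Both genes were highest in Ctrl 1. Strand use is not stated, so reads of this pair cannot be told apart. Rab19, of the Golgi, was at 41.0, 33.4, 37.2 and 32.0 FPKM in ScOE 1 to 4, against 46.4, 38.4 and 45.6 FPKM in Ctrl 1 to 3, with Ctrl 2 inside the ScOE range, and did not pass (adjusted p = 0.147).

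Among 7 further members, 3 were tested. RabX6 was at 17.8, 15.04, 20.3 and 19.5 FPKM in ScOE 1 to 4, against 10.6, 13.7 and 12.6 FPKM in Ctrl 1 to 3 (log2 0.53 ± 0.15, adjusted p = 0.0258). RabX4 was at 9.74, 7.35, 10.96 and 6.26 FPKM in ScOE 1 to 4, against 4.76, 5.54 and 4.58 FPKM in Ctrl 1 to 3 (log2 0.66 ± 0.19, adjusted p = 0.0329). Neither gene overlapped between the groups, but the call of RabX6 was lost in 5 of the 7 fits that leave out a library (adjusted p up to 0.0699) and that of RabX4 in 6 (up to 0.0842). An opposite-strand gene, Vti1 in the files, overlaps 36.2% of the exon length of RabX6, and its own level was 14.3 ± 1.66 FPKM in ScOE and 13.2 ± 2.75 FPKM in Ctrl. For RabX4, 9.25% of the exon length is shared with a gene on its own strand, CG31357, which was at 17.9 ± 2.02 FPKM in ScOE and 19.4 ± 3.60 FPKM in Ctrl. Rab40, whose product carries a SOCS box and joins ubiquitin ligases, was at 4.55, 4.67, 5.34 and 8.85 FPKM in ScOE 1 to 4, against 4.996, 8.59 and 11.8 FPKM in Ctrl 1 to 3 (adjusted p = 0.298), and the groups overlapped.

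The remaining members were at or near 0. Rab23, which acts in planar polarity in the fly, was at 0.0269 to 0.0697 FPKM in ScOE libraries and 0.0232 to 0.0622 FPKM in Ctrl libraries. RabX2 was listed at 0.0475 FPKM in ScOE 2 and at 0 elsewhere, and RabX5 and Rab9D were listed at 0 in all 7 libraries. A value listed at 0 can also be a failed estimate.

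Genes that load, unload and read Rab proteins were taken from 8 lists of 85 matched genes, 82 of them tested. Of these 8 rose and 17 fell, or 9.76% and 20.7% of the 82, beside 17.6% and 21.3% of all tested genes. Their median log2 fold change was -0.15. Among 5 genes of Rab prenylation and recycling, 1 rose (20%) and 2 fell (40%). The genes that fell encode both subunits of Rab geranylgeranyl transferase. CG12007, the alpha subunit gene, was at 34.2 ± 2.57 FPKM in ScOE and 74.98 ± 7.07 FPKM in Ctrl (log2 -1.11 ± 0.12, adjusted p = 4.69e-04). The beta subunit gene betaggt-II was at 10.3 ± 0.602 FPKM in ScOE and 16.6 ± 2.77 FPKM in Ctrl (adjusted p = 0.00876). The member that rose was qm, which makes the geranylgeranyl donor, at 24.6 ± 1.43 FPKM in ScOE and 14.96 ± 1.29 FPKM in Ctrl (adjusted p = 0.00289).

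Of 13 tested exchange factors 1 rose (7.69%) and 2 fell (15.4%), beside 17.6% and 21.3% of all tested genes. Crag, an exchange factor of Rab10 and Rab11 in the fly, was at 35.7, 32.1, 27.5 and 26.3 FPKM in ScOE 1 to 4, against 94.8, 114 and 110 FPKM in Ctrl 1 to 3. The 3.50-fold fall (log2 -1.78 ± 0.14, adjusted p = 1.56e-04) was larger in log2 terms than that of any tested Rab gene except RabX1. Rabex-5, an exchange factor of Rab5, was at 6.97 ± 0.898 FPKM in ScOE, against 31.5, 11.9 and 11.1 FPKM in Ctrl 1 to 3 (log2 -1.12 ± 0.34, adjusted p = 0.0374; log2 -0.66 without Ctrl 1). CG7787, now called strat, rose (78.9 ± 4.29 FPKM in ScOE and 55.8 ± 1.98 FPKM in Ctrl, adjusted p = 0.00750). Of 9 TRAPP subunits, which form the exchange factor of Rab1 and its relatives, 1 fell (11.1%) and 8 did not pass. That was Trs23, at 23.6 ± 3.90 FPKM in ScOE and 42.7 ± 16.7 FPKM in Ctrl (adjusted p = 0.0431).

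**Figure D5:**
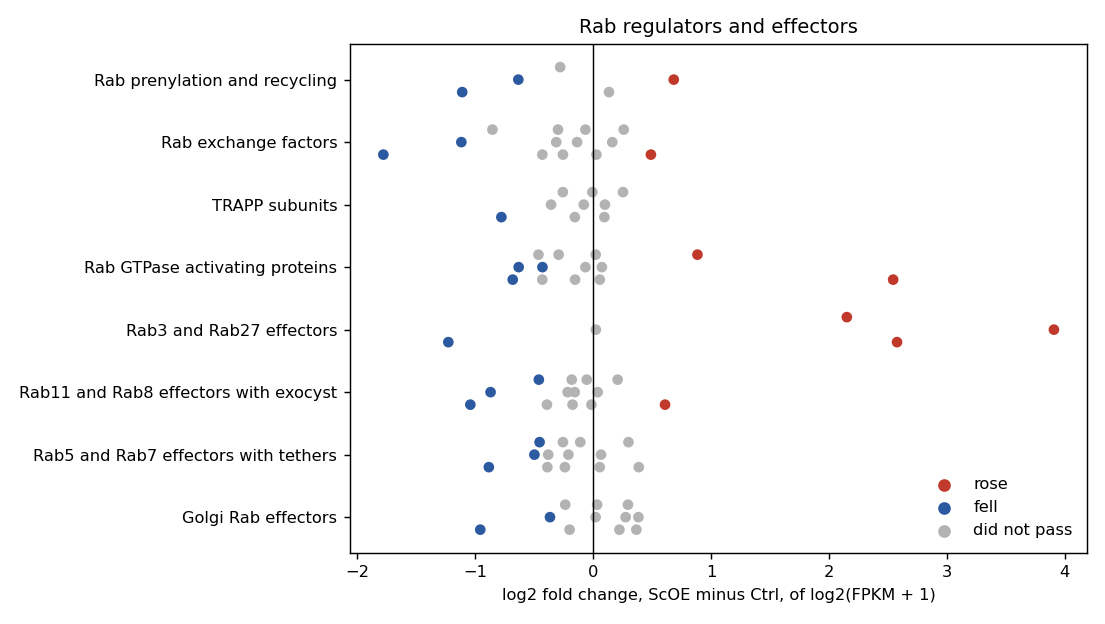
Log2 fold change (ScOE minus Ctrl, log2(FPKM + 1)) of the 82 tested Rab regulators and effectors by list; each point is a gene, red rose, blue fell and grey did not pass. The list of Rab3 and Rab27 effectors holds 3 of the 8 rises, up to 3.91, and the lowest point is Crag at -1.78.

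Of 13 tested GTPase activating proteins 2 rose (15.4%) and 3 fell (23.1%), beside 17.6% and 21.3% of all tested genes. CG32506, now called tbc, was at 5.33, 9.64, 8.61 and 7.08 FPKM in ScOE 1 to 4, against 0.169, 0.644 and 0.611 FPKM in Ctrl 1 to 3 (log2 2.54 ± 0.22, adjusted p = 2.30e-04), and it reached the filter only through ScOE. The other rise was that of plx (3.97 ± 0.609 FPKM in ScOE and 1.68 ± 0.126 FPKM in Ctrl, adjusted p = 0.00252). RN-tre was at 25.4 ± 1.08 FPKM in ScOE and 41.4 ± 1.23 FPKM in Ctrl (adjusted p = 0.00164), sky, which acts on Rab35 in fly neurons, at 25.3 ± 2.67 and 40.1 ± 7.52 FPKM (adjusted p = 0.0198), and Evi5, which acts on Rab11, at 11.02 ± 0.479 and 15.2 ± 1.63 FPKM (adjusted p = 0.0217).

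Among 13 effectors of Rab11 and Rab8 with the exocyst, 1 rose (7.69%) and 3 fell (23.1%), beside 17.6% and 21.3% of all tested genes. Rip11, a Rab11 effector, was at 135, 122, 109 and 100 FPKM in ScOE 1 to 4, against 206, 260 and 255 FPKM in Ctrl 1 to 3 (log2 -1.04 ± 0.15, adjusted p = 0.00176). Another Rab11 effector gene, nuf, averaged 15.2 ± 3.35 FPKM in ScOE and 28.3 ± 3.11 FPKM in Ctrl (adjusted p = 0.00927). Both fell, as did 1 of the 8 exocyst subunits, Exo84 (6.54 ± 0.515 against 9.44 ± 1.62 FPKM, adjusted p = 0.0379). Mical, an oxidoreductase of the actin cytoskeleton whose family binds Rabs, rose (12.4 ± 1.95 against 7.80 ± 1.47 FPKM, adjusted p = 0.0276).

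Effectors of Rab5 and Rab7 with their tethers gave 3 falls (23.1%, near the 21.3% of all tested genes) and no rise among 13. They were lt, a subunit of the tether that fuses lysosomes (13.1 ± 0.710 FPKM in ScOE and 18.3 ± 1.06 FPKM in Ctrl, adjusted p = 0.0122), the Rab5 effector Rbsn-5 (12.7 ± 2.81 against 24.9 ± 9.95 FPKM, adjusted p = 0.0404) and CG6613, now called Plekhm1 (6.66 ± 0.465 against 9.96 ± 2.31 FPKM, adjusted p = 0.0443). Of 11 Golgi Rab effectors 2 fell (18.2%) and none rose. BicD, which links Rab6 vesicles to dynein, was at 11.3 ± 2.07 FPKM in ScOE and 22.7 ± 2.50 FPKM in Ctrl (log2 -0.96 ± 0.16, adjusted p = 0.00346). Golgin84 was at 25.5 ± 1.98 FPKM in ScOE and 33.1 ± 2.57 FPKM in Ctrl (adjusted p = 0.0400). The GDP dissociation inhibitor Gdi, which extracts Rabs from membranes, was at 167 ± 15.6 FPKM in ScOE and 152 ± 3.55 FPKM in Ctrl and did not pass (adjusted p = 0.389).

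Of these 25 called regulators and effectors, qm, CG7787, CG32506, plx, Rbp, Rph, Rim and Crag kept call and direction under the 3 scalings and with each library left out in turn. CG32506, Rbp, Rph and Rim, 4 of the 8 rises, reached the filter only through ScOE libraries, which favours a rise, and their calls are a description only. With equal FPKM totals 46 of the 82 rose and 1, Crag, fell, and with upper quartile scaling 14 rose and 8 fell. With equal totals those are 56.1% and 1.22%, beside 52.9% and 3.33% of all tested genes. With upper quartile scaling they are 17.1% and 9.76%, beside 22.8% and 14.9%. Calls lost when some single library was left out were those of Rabex-5, Trs23, sky, Evi5, Mical, Exo84, lt, Rbsn-5, CG6613 and Golgin84. The adjusted p of these 10 genes went up to 0.124, for Golgin84 without Ctrl 2. Ctrl 1 was the highest library for Rabex-5, Trs23, Rbsn-5 and CG6613, and without it their log2 fold changes were -0.66 (adjusted p = 0.0137), -0.48 (adjusted p = 0.0584), -0.59 (adjusted p = 0.0793) and -0.34 (adjusted p = 0.0907).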

How the data were processed

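RNA of sorted midgut cells was sequenced after amplification in 4 ScOE and 3 Ctrl libraries. The deposited table gives FPKM per gene and library, which the authors made with TopHat2 2.0.10 and Cufflinks 2.2.1 on BDGP6, per the submitters' processing notes. Cells were taken up with a PicoPure kit and RNA was amplified with RiboAmp HS PLUS, per the labels' protocols. Annotation and strand use are not given in the sources used here. FPKM holds no counts, so the depth of a value is unknown and no counting interval is given.

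FPKM was taken as log2(FPKM + 1). Genes that reached 1 FPKM in 3 or more of the 7 libraries were tested with limma 3.58.1 (R 4.3.3) with a variance trend, two-sided, with Benjamini-Hochberg adjustment over all 8421 tested genes and a threshold of 0.05. SE is that of the log2 fold change (n = 4 and 3). The single value of sc was tested in scipy 1.17.1, and the fit was tested on simulated data. Members and lists were chosen with earlier results of these data known, so no test was made over a list. Named were all members and, in each list of regulators and effectors, up to 3 genes that rose and 3 that fell with the smallest adjusted p. Rab3-GEF, Rab3-GAP, CG31935, Unc-13-4B and Gdi, which that rule does not pick, are also named and were chosen after their values were seen. Of 181 list entries 6 had no match, and 1, Cbs, was left out since that symbol names another gene in the table. Positions and overlaps are from the BDGP6 annotation by gene ID for 27 of 28 members, and by symbol for Rab1. No 2 libraries were identical. Other pseudocounts, filters, scalings, library weights, a replicate block and leaving out each library were tried.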

Additional observations from a re-analysis of the deposited data

Results flagged for a closer look

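Among 53 groups of 4 ScOE libraries examined, 3 held a library far from the other 3, where chance gives about 1 in 20. Rab30 was at 11.6 FPKM in ScOE 3 and at 13.8 to 14.3 FPKM in the other ScOE libraries, all below Ctrl. The GTPase activating protein gene sky was at 21.4 FPKM in ScOE 3 and at 26.3 to 26.9 FPKM in the others. RabX2 was at 0.0475 FPKM in ScOE 2 and listed at 0 in the others.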

How the results depend on the processing

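Scaling had the largest effect of the choices tried. With equal FPKM totals 4454 genes rose and 280 fell, of the Rab members 8 rose and 1 fell, and of the regulators and effectors 46 rose and 1 fell. Of all called genes 45.2% rose as deposited, 94.1% with equal totals and 60.5% with upper quartile scaling. With upper quartile scaling 6 Rab members fell, 14 regulators and effectors rose and 8 fell, and with quantile normalization 4 Rab members fell. Over all tested genes 1916 rose and 1251 fell with upper quartile scaling, and 1482 rose and 1454 fell with quantile normalization. With equal totals the log2 fold change changed sign for Rab8 (0.24), Rab10 (0.14), Rab11 (0.29), Rab4 (0.28), Rab35 (0.23), Rab1 (0.51; 0.042 with quantile normalization), Rab18 (0.31), Rab19 (0.58, adjusted p = 0.0154), Rab5 (0.091), Rab7 (0.042), Rab9 (0.056), Rab39 (0.28), Rab40 (0.31), betaggt-II (0.17), Trs23 (0.064), RN-tre (0.16), sky (0.21), Evi5 (0.38), Exo84 (0.31), lt (0.36), CG6613 (0.27) and Golgin84 (0.47). Library weights gave 14 rises and 31 falls among regulators and effectors, and 2154 rises and 2686 falls over all tested genes. Leaving out 1 library at a time gave 1148 to 1511 rises and 1325 to 1668 falls over all genes, 2 to 4 and 9 to 11 over Rab members, 7 to 8 and 9 to 17 over regulators and effectors, a log2 fold change of sc of 5.58 to 6.09, and a ratio of regulated secretion to 1000 FPKM of endosomal Rab RNA of 37.7 to 43.8 in ScOE and 0.426 to 0.811 in Ctrl. With Rab4, Rab11 and Rab35 added to the endosomal list that ratio was 30.5 in ScOE. Without both libraries numbered 1, chosen after seeing the data, 2 Rab members rose and 11 regulators and effectors fell. Other pseudocounts, other filters and no variance trend left these counts within 1.5 times. Causes were not tested.

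The labels do not say that equal library numbers mark a pairing, and deviations of same-numbered libraries correlated at 0.524, -0.041 and 0.082, so the numbers were not taken as pairs, and Ctrl 2 and Ctrl 3 did not correlate best with their own number. With a replicate block on the 3 shared numbers, 3 Rab members rose and 7 fell, and 10 regulators and effectors fell. Over all tested genes 1191 rose and 1349 fell with that block. The missing counts and the small groups limit precision for the members near the filter.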

Other observations

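Rab genes with other symbols were not counted among the 28. The gene ltd, the fly Rab32, was at 66.0, 83.4, 78.3 and 70.8 FPKM in ScOE 1 to 4, against 58.3, 93.7 and 101.7 FPKM in Ctrl 1 to 3, and the groups overlapped. Rab9Db was listed at 0, 0.0418, 0.0866 and 0 FPKM in ScOE 1 to 4 and at 0 in Ctrl libraries. Rab9E, Rab9Fa and Rab9Fb were listed at 0 in all 7 libraries.

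The spread between libraries of 1 group was not shared evenly among the abundant members. In ScOE libraries the coefficient of variation was 33.6% for RabX1 and 11.7% for Rab5, and in Ctrl libraries it was 44.5% for RabX1 and 2.00% for Rab5.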
